A study of Mus musculus with 6 samples.

Results

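A set of 9 genes that run the mitochondrial, or intrinsic, route of apoptosis were examined in whole retina of C57BL/6 mice: *Bax*, *Bak1*, *Bcl2*, *Bcl2l1*, *Bcl2l11*, *Bbc3*, *Hrk*, *Casp9* and *Apaf1*. They were chosen by name, as genes of the BCL2 family and of caspase activation, from the 31169 genes of the deposited count table. All 9 are in that table and all 9 had enough counts to be tested, among 17707 tested genes. Of the retinas, 3 came from mice that received an intraocular injection of saline and 3 from mice that received polystyrene microbeads, 15 μm in diameter. Injections of 1 μL were made at 1 month of age and the retinas were taken 4 weeks later, at 2 months of age. Volume and number of retinas are given here as in the labels, and the study's text states another volume and more retinas per group. Beads lodge where aqueous humor leaves the eye, intraocular pressure rises, and the injected eye serves as a model of glaucoma. Both groups were male mice injected in both eyes, and the labels name no transgene, altered allele or further agent for either. Poly(A) RNA of the whole retina was sequenced, so that every retinal cell type contributes to each value. In such bulk samples, fewer cells of a type and less RNA per cell cannot be told apart.

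In the intrinsic route, BAX and BAK1 form pores in the outer mitochondrial membrane, while guard proteins such as BCL2 and BCL-XL, the main product of *Bcl2l1*, hold them in check. BH3-only proteins, among them BIM (*Bcl2l11*), PUMA (*Bbc3*) and Harakiri (*Hrk*), occupy the guards or act on the pore formers directly. Cytochrome c that leaves the mitochondrion then assembles APAF1 into the apoptosome, which activates caspase-9 and through it the executioner caspases. Loss of retinal ganglion cells, the neurons whose axons form the optic nerve, proceeds largely through this route, with a strong dependence on BAX in mice.

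The total count was between 36085737 and 46481382 in the saline libraries and between 13574949 and 19834366 in the microbead libraries, so that 1 count was worth at most 0.0285 counts per 1000000 (CPM) in saline and at most 0.0721 CPM in microbead. Mitochondrially encoded genes took 3.19 to 3.57% of counts in saline and 8.9 to 10.6% in microbead. Library names fall into 1 series for saline and another for microbead, so that the injection and any other difference between the series cannot be told apart. Each retinal marker gene had counts in at least 1 of the 6 libraries, and zeros in single libraries were not tested. The 8 rod markers together held 53963 to 80807 CPM. The 12 ganglion cell markers summed to 381 CPM in saline replicate 1, against 1102 and 1412 CPM in the other saline libraries and 947 to 1298 CPM in microbead, and none of them passed the test between groups. Of the other marker lists, 2 of 6 Müller glia markers, 2 of 6 endothelial markers and 1 of 8 rod markers were called lower in microbead, with list medians of -0.28, -0.62 and -0.19 on the log2 scale, and 1 of 6 cone markers was called higher. Over all tested genes, 6.31% were called lower and 6.46% higher. The 6 microglial markers had a median of -0.86 with 0 calls. Saline replicate 1 also had the highest sum of 6 microglial markers, at 125 CPM against 30.4 to 62.4 CPM in the other libraries. Saline replicate 3 held 363 CPM of 6 lens genes, against 27.9 CPM in saline replicate 1 and at most 0.601 CPM in the other libraries. It also had the highest sum of pigment epithelium markers, at 243 CPM against 11.9 to 125 CPM elsewhere. Its sum of Müller glia markers was the highest as well, at 7305 CPM against 3883 to 4826 CPM. These libraries were kept, and the part that cell makeup plays in the values of the apoptosis genes was not tested.

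Of the 9 genes, 1 was past the threshold in microbead against saline retina and 8 were not. *Bak1* was called higher, at 2.17-fold, and no member was called lower. The test was edgeR's quasi-likelihood test over all 17707 genes, with a Benjamini-Hochberg adjusted p-value under 0.05. By the same rule 12.8% of all tested genes were called, 6.46% as higher and 6.31% as lower, so that the members' share of 11.1% was close to that of the whole table. An unadjusted p-value under 0.05 was found for 3 of the 9, *Bak1*, *Bcl2l11* and *Apaf1*, which is 33.3% of them, beside 31.4% of all tested genes. The median log2 fold change of the members was -0.16, beside -0.03 for all tested genes, and their fold changes ran from -0.73 for *Bcl2l11* to 1.11 for *Bak1*. The CPM ranges of the groups did not overlap for 3 members, *Bak1*, *Bbc3* and *Apaf1*, which is 33.3% of them, and the same was true of 37.8% of all tested genes.

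**Figure D1:**
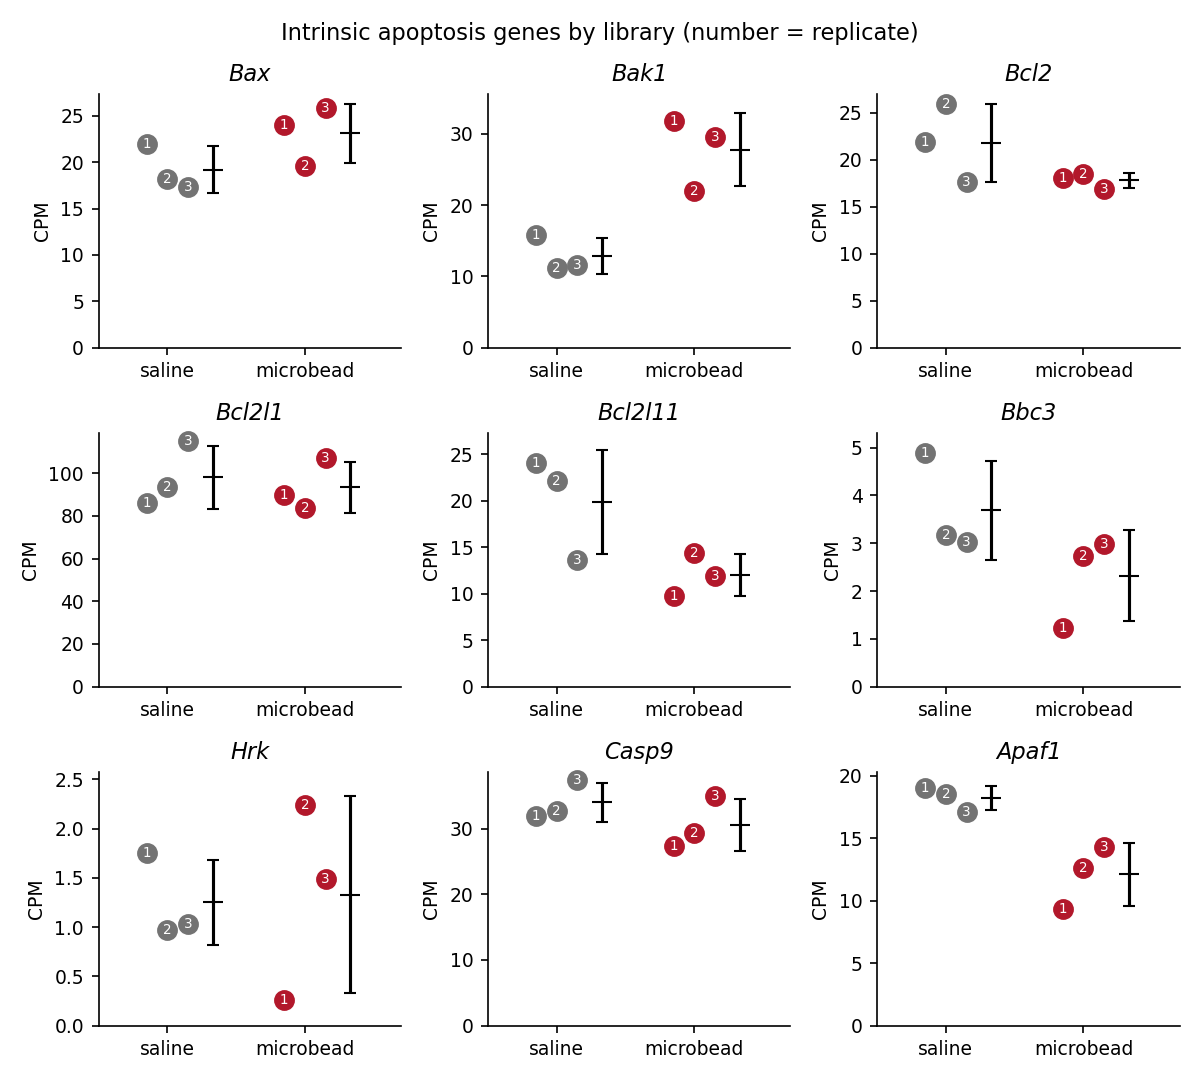
Normalised expression of the 9 intrinsic apoptosis genes in each library. The y axis of each panel is CPM on TMM-scaled library sizes, starting at 0, each numbered point is 1 retina library (gray, saline; red, microbead), and the bar beside each group is the mean ± SD of 3 libraries. The microbead points of *Bak1* lie at 22 to 31.8 CPM, all above the saline points at 11.2 to 15.8 CPM, whereas the points of *Bax*, *Bcl2l1*, *Casp9* and *Hrk* intermingle.

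*Bak1*, which encodes the pore former BAK1, was the member past the threshold. Its level was 15.8, 11.2 and 11.6 CPM in saline replicates 1 to 3 and 31.8, 22 and 29.6 CPM in microbead replicates 1 to 3. Every microbead library thus lay above every saline library, and the lowest microbead value exceeded the highest saline value by more than either group's SD. The means were 12.9 ± 2.53 CPM (SD, n = 3) in saline and 27.8 ± 5.15 CPM (SD, n = 3) in microbead. The log2 fold change was 1.11 with a standard error of 0.23 and a 95% interval of 0.61 to 1.62, and the adjusted p-value of edgeR's quasi-likelihood test was 0.019. The values rest on 408 to 594 counts in saline and 305 to 619 counts in microbead. With 1 library left out at a time, the log2 fold change stayed between 1.00 and 1.28. The call was lost without saline replicate 2 (adjusted p = 0.0805 from edgeR), without microbead replicate 1 (adjusted p = 0.0571) and without microbead replicate 3 (adjusted p = 0.0923).

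*Bak1* lies on the minus strand of chromosome 17 at chr17:27019810-27029009 (GRCm38). It shares 437 bases of its exons, 18.2% of their length, with *Ggnbp1*, a gene on the opposite strand. *Ggnbp1* was measured at 5.09, 3.21 and 1.94 CPM in the saline replicates and at 7.2, 6.06 and 11.9 CPM in the microbead replicates. It was thus higher in each microbead library as well, though its log2 fold change of 1.29 (standard error 0.41) did not pass the test (adjusted p = 0.0662 from edgeR). The libraries were stranded, but the strand setting of the counting is not given in the sources used here, and how many counts the pair shares was not tested. No other member shared as large a part of its exons with a gene that is in the table.

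*Bax*, which encodes the other pore former, did not pass the test. Its level was 22, 18.2 and 17.3 CPM in saline and 24, 19.6 and 25.8 CPM in microbead. The highest saline library lay above the lowest microbead library, and the means of 19.2 ± 2.52 and 23.1 ± 3.16 CPM (SD, n = 3 each) differed by 1.21-fold with a 95% interval of 0.89 to 1.64 (adjusted p = 0.376 from edgeR). That interval does not reach a 2-fold rise and includes both a smaller rise and a small fall. With a GC and length offset in the fit, the log2 fold change of *Bax* was 0.58 in place of 0.27 (adjusted p = 0.061 from edgeR). Within a library, the level per kilobase of *Bak1* relative to that of *Bax* was 0.469, 0.401 and 0.441 in saline and 0.868, 0.734 and 0.752 in microbead. The mean ratio was 0.437 ± 0.0337 in saline and 0.785 ± 0.0726 in microbead, a 1.79-fold difference without overlap, given as a description with no test. The ratio holds no such offset, and with it the log2 fold changes of *Bak1* and *Bax* lay closer together, at 0.98 and 0.58.

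Neither of the guard genes among the members passed the test. *Bcl2*, the founding member of the family, stood at 21.9, 25.9 and 17.6 CPM in saline and at 18, 18.5 and 16.9 CPM in microbead. Saline replicate 3 fell within the microbead range, and the log2 fold change was -0.29 with a standard error of 0.20 and a 95% interval of -0.75 to 0.16 (adjusted p = 0.349 from edgeR). The spread of *Bcl2* was unequal, with an SD of 4.14 CPM in saline and 0.818 CPM in microbead. *Bcl2l1*, whose product BCL-XL is a prominent guard of retinal neurons, stood at 86.2, 93.3 and 115 CPM in saline and at 89.6, 83.5 and 107 CPM in microbead. The groups covered nearly the same range, and the fold of 0.952 had a 95% interval of 0.718 to 1.26 (adjusted p = 0.822 from edgeR).

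Ratios of a pore former to the guards *Bcl2* and *Bcl2l1* were set out within each library, per kilobase, as a description with no test. Of the guards left out, *Mcl1* and *Bcl2l2* stood at 36.1 and 32.6 CPM per kilobase in saline, against 21.4 for *Bcl2l1* and 2.38 for *Bcl2*. *Mcl1* and *Bcl2l2* had log2 fold changes of -0.22 and -0.16 and did not pass edgeR's test. The ratio of *Bax* to *Bcl2* was 5.85, 4.09 and 5.7 in saline and 7.75, 6.17 and 8.87 in microbead. Each microbead library had a higher ratio than each saline library, with means of 5.21 ± 0.978 and 7.6 ± 1.36 (SD, n = 3 each), although neither gene passed the test on its own. The ratio of *Bax* to *Bcl2l1* overlapped between the groups, with 0.743, 0.568 and 0.438 in saline and 0.78, 0.683 and 0.701 in microbead. The ratio of *Bak1* to *Bcl2l1* was 0.348, 0.228 and 0.193 in saline and 0.677, 0.502 and 0.528 in microbead, which is 2.27-fold higher in microbead on the geometric mean and without overlap. That ratio holds *Bak1*, the member that passed the test. How often ratios of other genes separate was not tested, and 37.8% of single tested genes had groups without overlap.

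**Figure D2:**
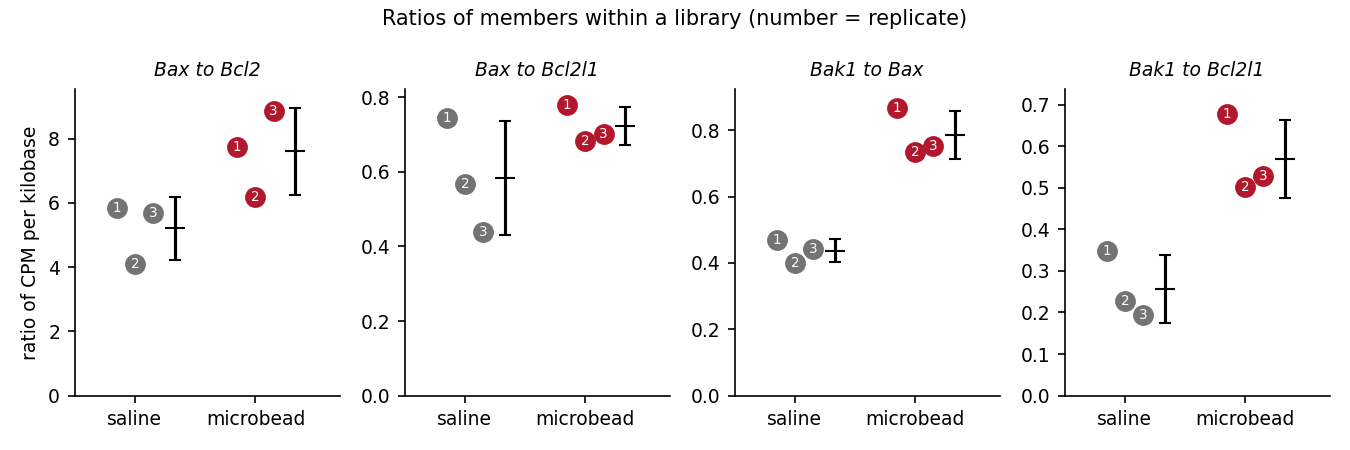
Ratios of pore formers to guards, and of the pore formers to each other, within each library. The y axes are ratios of CPM per kilobase of exon, starting at 0, numbered points are libraries (gray, saline; red, microbead), and bars are mean ± SD of 3 libraries. The groups are separate for *Bax* to *Bcl2*, *Bak1* to *Bax* and *Bak1* to *Bcl2l1*, and overlap for *Bax* to *Bcl2l1*. The ratios with *Bak1* hold the member that passed the test, and how often ratios of other genes separate was not tested.

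None of the 3 BH3-only genes among the members passed the test. *Bcl2l11* encodes BIM, a BH3-only protein that is known to respond to stress in axotomized neurons. It was measured at 24.1, 22.1 and 13.6 CPM in saline and at 9.77, 14.4 and 11.9 CPM in microbead. The first and second saline libraries lay above every microbead library, whereas saline replicate 3 lay below microbead replicate 2. The means were 19.9 ± 5.57 and 12 ± 2.29 CPM (SD, n = 3 each), the log2 fold change was -0.73 with a standard error of 0.26, and the 95% interval ran from -1.33 to -0.14 (adjusted p = 0.0931 from edgeR). Without saline replicate 3, the library rich in lens RNA, the log2 fold change was -0.95 and the adjusted p-value of edgeR's test was 0.0395, on the other side of the threshold. With any other library left out, *Bcl2l11* did not pass (adjusted p from 0.116 to 0.254 from edgeR).

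*Bbc3* encodes PUMA, a BH3-only protein and a classical target of p53. Its level was low, at 4.88, 3.17 and 3.02 CPM in saline and at 1.23, 2.74 and 2.98 CPM in microbead. The groups were separated only by the gap between 3.02 and 2.98 CPM, and the microbead values rest on 24 to 46 counts. The log2 fold change was -0.68 with a standard error of 0.42 and a 95% interval of -1.62 to 0.27 (adjusted p = 0.302 from edgeR).

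*Hrk* encodes Harakiri, a BH3-only protein found mostly in neurons, and was the least abundant member. It was measured at 1.75, 0.974 and 1.03 CPM in saline and at 0.257, 2.24 and 1.49 CPM in microbead. The microbead group held both the lowest and the highest value of the 6, and its coefficient of variation was 75.2%, against 34.8% in saline. Microbead replicate 1 rests on 5 counts, for which the 95% Poisson interval is 0.0835 to 0.6 CPM (counting error only). The log2 fold change was 0.07 with a standard error of 0.67 and a 95% interval of -1.44 to 1.58 (adjusted p = 0.96 from edgeR), so that a 2-fold difference of *Hrk* in either direction was not detectable at this depth and spread.

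The sequences just upstream of *Bcl2l11* and *Bbc3* are shown because both genes are textbook targets of FOXO3, a forkhead transcription factor. *Foxo3* itself was called lower in the microbead retinas, a call that depended on the processing and on single libraries, as described further on. Neither *Bcl2l11* nor *Bbc3* passed the test, and a link between *Foxo3* and their levels was not tested. FOXO factors bind sites that contain TGTTTAC. RefSeq (GRCm38.p6) has 14 start sites for the 9 members, and the 250 bases upstream of each were searched on both strands. The letters occurred in 2 of the 14 windows, 1 of *Bcl2l11* and 1 of *Bbc3*, and in 3.17% of all 32851 such windows of the mouse genome. The windows are chr2:128125788-128126037 and chr7:16310011-16310260, both written 5′ to 3′ on the plus strand, on which both genes lie, and the capitals mark the match. In *Bcl2l11* the match is read on the minus strand and its first base is at -227 from the start, and in *Bbc3* it is read on the plus strand, at -167 from window 2 of its 3 start sites.
Bcl2l11: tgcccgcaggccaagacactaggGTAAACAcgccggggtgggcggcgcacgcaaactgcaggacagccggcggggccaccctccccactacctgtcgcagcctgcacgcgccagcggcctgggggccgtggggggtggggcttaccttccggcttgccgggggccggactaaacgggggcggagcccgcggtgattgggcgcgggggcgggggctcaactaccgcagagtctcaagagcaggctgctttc
Bbc3: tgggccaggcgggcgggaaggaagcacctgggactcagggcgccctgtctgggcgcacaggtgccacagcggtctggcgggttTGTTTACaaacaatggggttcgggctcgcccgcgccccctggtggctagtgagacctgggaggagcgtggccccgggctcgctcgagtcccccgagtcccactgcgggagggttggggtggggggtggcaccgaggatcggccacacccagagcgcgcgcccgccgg

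The same windows were searched for 3 other motifs. The GC box GGGCGG, bound by SP1, was found in 10 of the 14 windows, which belong to 7 of the 9 members, and in 32.7% of all windows. CCAAT, bound by NF-Y, was found in 3 of the 14 windows, all of *Bcl2l11* or *Bbc3*, and in 33.8% of all windows. The AP-1 motif TGANTCA was found in 0 of the 14 windows and in 6.75% of all windows. All 250 bases of the only *Bak1* window and of *Bcl2l1* windows 1 and 2 lie in annotated exons of the same gene. The lack of motifs there thus does not describe sequence upstream of the annotated gene. Window 3 of *Bcl2l1* lies outside such exons and also held no GC box. These are matches of letters and not measurements of binding.

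The genes of the apoptosome did not pass the test. *Apaf1*, the scaffold of the apoptosome, stood at 19, 18.5 and 17.1 CPM in saline and at 9.36, 12.6 and 14.3 CPM in microbead. Every microbead library lay below every saline library. The means were 18.2 ± 0.964 and 12.1 ± 2.53 CPM (SD, n = 3 each), the log2 fold change was -0.59 with a standard error of 0.22, and the 95% interval ran from -1.08 to -0.10 (adjusted p = 0.0994 from edgeR). *Casp9*, the initiator caspase that the apoptosome activates, stood at 32, 32.7 and 37.4 CPM in saline and at 27.3, 29.3 and 35 CPM in microbead. Its groups overlapped, and the fold of 0.897 had a 95% interval of 0.683 to 1.18 (adjusted p = 0.581 from edgeR).

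**Figure D3:**
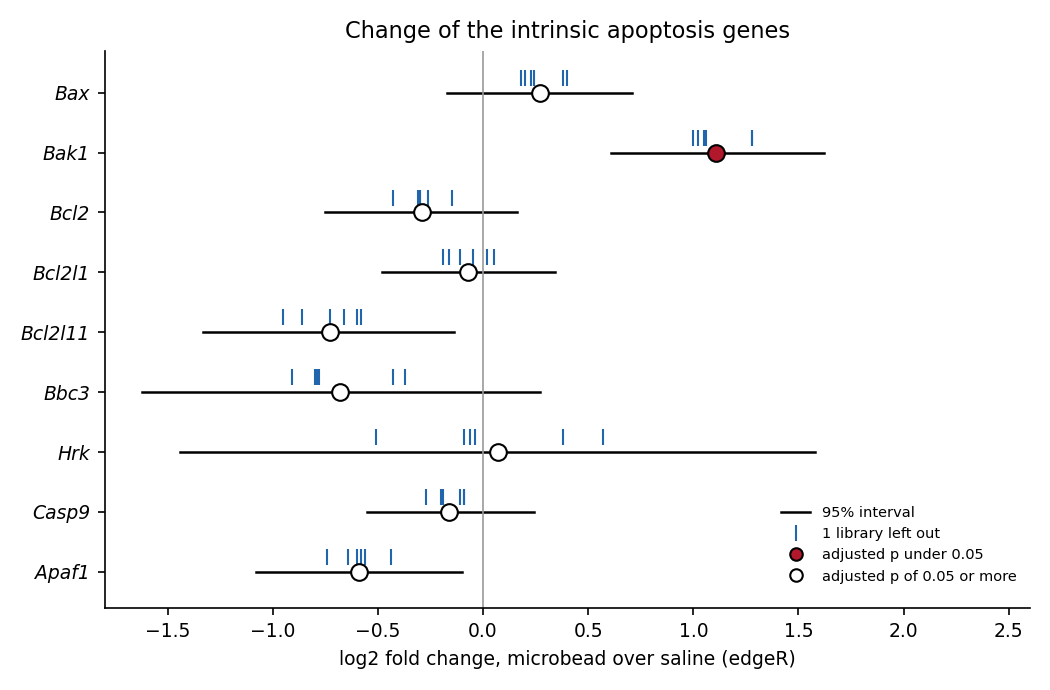
Change of each intrinsic apoptosis gene between groups. The x axis is the log2 fold change of microbead over saline from edgeR, circles are the fitted values over 6 libraries with 95% intervals, and blue ticks are the fitted values with 1 library left out. The filled circle of *Bak1* at 1.11 is past the threshold, the open circles of the other 8 are not, and the ticks of *Bcl2l1* and *Hrk* fall on both sides of 0.

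Per kilobase of exon, the members spanned a wide range of levels. In saline retina *Bcl2l1* was the most abundant, at 21.4 ± 3.22 CPM per kilobase, followed by *Bax* at 12.2 ± 1.6, *Casp9* at 6.55 ± 0.565 and *Bak1* at 5.34 ± 1.05 CPM per kilobase (SD, n = 3 each). The ranges of *Casp9* and *Bak1* overlapped, whereas *Bcl2l1*, *Bax* and *Casp9* were separate from each other in turn. *Bcl2l11*, *Bcl2*, *Apaf1* and *Bbc3* came next, with means between 2.48 and 1.74 CPM per kilobase and neighbors that overlapped, and *Hrk* was last at 0.22 ± 0.0766 CPM per kilobase. In microbead retina *Bak1* ranked 3, at 11.6 ± 2.14 CPM per kilobase, in a range that overlapped that of *Bax* at 14.7 ± 2.01 and lay above that of *Casp9* at 5.88 ± 0.763 CPM per kilobase. *Bcl2l1* remained first at 20.3 ± 2.64 and *Hrk* last at 0.234 ± 0.176 CPM per kilobase.

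Saline replicate 1, the library with the lowest ganglion cell sum and the highest microglial sum, held the highest saline value of *Bax*, *Bak1*, *Bcl2l11*, *Bbc3*, *Hrk* and *Apaf1* and the lowest of *Bcl2l1* and *Casp9*. Saline replicate 3 held the highest saline value of *Bcl2l1* and *Casp9* and the lowest of *Bax*, *Bcl2*, *Bcl2l11*, *Bbc3* and *Apaf1*. The saline libraries were thus ordered alike for several members, and the saline spread of *Bcl2l11* and *Bbc3* is mostly the distance of 1 library from the other 2. *Bak1* without saline replicate 1 was higher in microbead by 1.28 on the log2 scale (adjusted p = 0.0124 from edgeR), and without saline replicate 3 by 1.05 (adjusted p = 0.0357 from edgeR).

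The genes whose log2 CPM followed each member most closely over the 6 libraries were sought among 10004 tested genes with a mean of at least 10 CPM. For *Bak1* they were *Tesk2* (Pearson r = 0.996) and *Zdhhc24* (r = 0.995), for *Bcl2l11* *Zhx3* (r = 0.997) and *Zbtb5* (r = 0.991), and for *Apaf1* *Slc39a9* (r = 0.997) and *Brf2* (r = 0.996). With so many candidates and 6 points that share 2 groups and their depths, coefficients of this size are a description only.

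Beyond the 9 members, 57 genes of 8 groups around the pathway were listed, of which 52 could be tested. Of these, 3 (5.77%) were past the threshold, 1 higher and 2 lower, against 12.8% of all tested genes. *Trp53* rose and *Foxo3* and *Vdac1* fell. The median log2 fold change of the 52 was 0.05, and the groups did not overlap for 13 of them, or 25%, against 37.8% of all tested genes. These lists were drawn up with earlier results of the same data known.

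Among the 13 tested regulators of BH3-only genes, *Trp53* rose and *Foxo3* fell, and 11 did not pass, a called share of 15.4% beside 12.8% of all tested genes. *Trp53* encodes the transcription factor p53, which acts on *Bax*, *Bbc3* and other genes of the route. Its level was 20.2, 16.3 and 14.1 CPM in saline and 33.3, 31.5 and 36.2 CPM in microbead. All microbead libraries lay well above all saline libraries, and the log2 fold change was 1.00 with a standard error of 0.19 (adjusted p = 0.0174 from edgeR). The call was lost without saline replicate 2 (adjusted p = 0.0756) or microbead replicate 3 (adjusted p = 0.0864 from edgeR). *Bax* and *Bbc3* themselves, at log2 fold changes of 0.27 and -0.68, did not pass, and the activity of p53 was not tested.

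*Foxo3* stood at 160, 145 and 116 CPM in saline and at 75, 89.1 and 77.9 CPM in microbead. The groups were apart, and the log2 fold change was -0.80 with a standard error of 0.18 (adjusted p = 0.025 from edgeR). Its call was lost with an offset for GC content and length (log2 fold change -0.58, adjusted p = 0.0746 from edgeR). It was also lost without saline replicate 2 (adjusted p = 0.098) or without microbead replicate 1 (0.0624), 2 (0.0564) or 3 (0.105), each an adjusted p-value from edgeR. *Jun*, the AP-1 factor through which stress kinases act on *Bcl2l11* and *Hrk*, had the largest fold change of the list in size, at -2.38 with a standard error of 0.73, and did not pass (adjusted p = 0.0621 from edgeR). It was measured at 70.1, 48.6 and 479 CPM in saline and at 34.2, 38.7 and 42.2 CPM in microbead. Saline replicate 3 alone set the size of that difference, and without it the log2 fold change was -0.63. The difference passed without saline replicate 1 (-2.78, adjusted p = 0.0212 from edgeR) or saline replicate 2 (-2.84, adjusted p = 0.0465 from edgeR), where saline replicate 3 weighs more. With all 6 libraries it also passed without a filter (-2.44, adjusted p = 5.01e-08 from edgeR).

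Of the 3 voltage-dependent anion channels, the main pores of the outer mitochondrial membrane, 1 was called lower. That is 33.3% of a list of only 3 genes, beside 6.31% called lower over all tested genes. *Vdac1* was measured at 551, 585 and 776 CPM in saline and at 376, 343 and 336 CPM in microbead. The groups did not overlap, as was true of 37.8% of all tested genes. The log2 fold change was -0.86 with a standard error of 0.19 (adjusted p = 0.0233 from edgeR). The call was lost without saline replicate 2 (adjusted p = 0.0725) or without microbead replicate 1 (0.0548), 2 (0.078) or 3 (0.107), each an adjusted p-value from edgeR. *Vdac3*, at a log2 fold change of -0.53, did not pass (adjusted p = 0.129 from edgeR). *Vdac2* went the other way, at 0.27, and did not pass either (adjusted p = 0.339 from edgeR).

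No gene passed edgeR's test in the other 6 lists. An unadjusted p-value of that test under 0.05 was found for 1 of 3 tested genes among the other guards and 1 of 6 among the other BH3-only genes with *Bok*. It was found for 1 of 5 released mitochondrial factors and 1 of 5 inhibitors of apoptosis proteins. The executioner caspases and their targets had 2 of 8, and the death receptor pathway 0 of 9. Over all tested genes the share was 31.4%. DESeq2 called 6 of the 52 genes in all, 1 higher and 5 lower. *Endog*, which encodes the mitochondrial nuclease endonuclease G, stood at 9.07, 8.78 and 9.8 CPM in saline and at 4.58, 2.67 and 6.16 CPM in microbead, a log2 fold change of -1.04 with a standard error of 0.32 (adjusted p = 0.0623 from edgeR, 0.021 from DESeq2, and 0.021 to 0.139 over the alternatives with 6 libraries). Its groups did not overlap, and the call depended on the test and on the processing, since edgeR called it without a filter (0.022) and after thinning to the smallest total (0.0485), both adjusted p-values. With an offset for GC content and length its log2 fold change was -0.69.

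The other genes named from these lists had wider errors or smaller differences, and none passed edgeR's test. Among guards, *Mcl1* had a log2 fold change of -0.22 (adjusted p = 0.512) and the sparse *Bcl2l10* one of 1.56 with a standard error of 0.66 (adjusted p = 0.137). *Bok*, a BAX-like family member, stood at -1.08 without overlap of the groups (adjusted p = 0.079, and called by DESeq2 at 0.0355 and by edgeR without a filter at 0.0265), and the BH3-only gene *Bik* at -1.49 (adjusted p = 0.172). *Diablo*, which encodes the antagonist of the inhibitors of apoptosis that leaves the mitochondrion with cytochrome c, stood at 0.34 (adjusted p = 0.204). The inhibitors *Birc3* and *Birc5* stood at -1.17 (adjusted p = 0.163) and 0.94 (adjusted p = 0.382). *Acin1*, a caspase target in chromatin condensation, stood at 0.51 (adjusted p = 0.139). The death ligand *Tnfsf10* (TRAIL) and its receptor *Tnfrsf10b* stood at -1.02 (adjusted p = 0.244) and -0.76 (adjusted p = 0.248). Several of these genes rest on few microbead counts. They were 4 to 5 for *Bik*, 4 to 10 for *Birc3*, 10 to 11 for *Birc5*, 7 to 19 for *Tnfsf10* and 17 to 22 for *Tnfrsf10b*. The changes in this paragraph are log2 fold changes of microbead over saline, and the adjusted p-values are from edgeR except where DESeq2 is named.

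**Figure D4:**
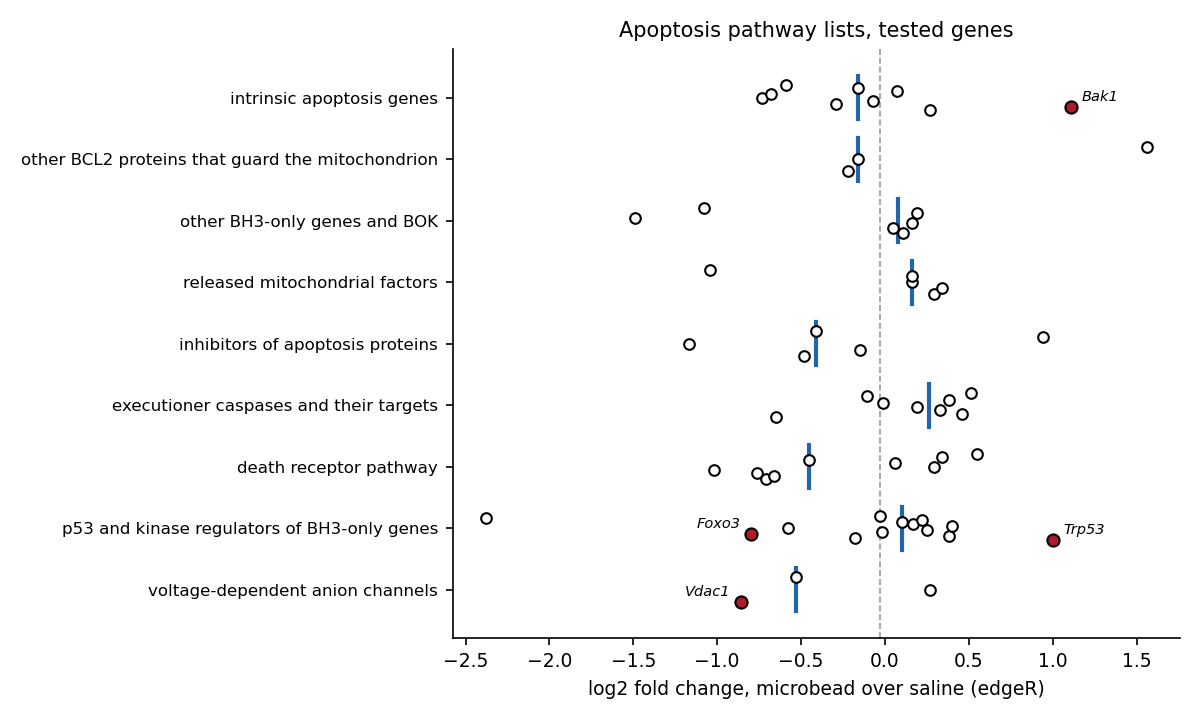
Tested genes of the intrinsic apoptosis set and of 8 lists around the pathway. The x axis is the log2 fold change of microbead over saline from edgeR, each circle is a gene, filled circles are past the threshold, blue bars are list medians and the dashed line is the median of all tested genes at -0.03. The 4 filled circles are *Bak1* at 1.11, *Trp53* at 1.00, *Foxo3* at -0.80 and *Vdac1* at -0.86.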

How the data were processed

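The authors aligned 100-base paired-end reads of poly(A) libraries with STAR 2.5.3a to GRCm38.p5 with GENCODE vM12, counted them on genes with featureCounts (given as v1.15.2), and deposited unnormalized counts of 31169 genes for 6 libraries. The table also holds 6 columns of the authors' DESeq2 comparison (mean, log2 fold change, fold, p-values, calls), which were not used.

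After filterByExpr (a minimum count of 10 and a minimum total of 15) and TMM scaling, groups were compared by edgeR's two-sided quasi-likelihood test (version 4.0.16, R 4.3.3), with Benjamini-Hochberg adjustment over 17707 genes and a threshold of 0.05. CPM used TMM-scaled totals, and levels between genes were divided by merged exon length (GENCODE vM21). Intervals of fold changes are 95% intervals of the fit. The labels do not say which animal gave each retina, so the p-values measure the spread between these samples, which may be partly technical. Between libraries of 1 group, chi-square over genes was at least 20.1 per degree of freedom, above sampling noise, so none was taken for a second deposit of another. This does not show that they came from separate animals. An exact permutation test of 3 against 3 cannot go below 0.1 and was not used.

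The members and lists were chosen with earlier results of these data known. The genes named are the members, the genes of each list past the threshold with its 2 largest fold changes, and the closest in likeness, some of which are not reported here. *Ggnbp1*, *Vdac2* and *Bcl2l2* were added after their values were seen. *Map2k7* was not analysed here, and *Fasl*, *Bcl2a1a*, *Bcl2a1b* and *Bcl2a1d* had too few counts to test. The alternatives were other scalings, other filters, totals without mitochondrial genes, DESeq2 1.42.0, limma-voom (limma 3.58.1), a GC and length offset, a replicate block, thinning to the smallest total, a stricter threshold of 0.01, and fits without each library. Scripts were first tested on simulated data.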

Additional observations from a re-analysis of the deposited data

How the results depend on the processing

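*Bak1* was past the threshold under all 11 alternatives that kept the 6 libraries and the threshold of 0.05 (log2 fold change 0.98 to 1.16, adjusted p from 0.000198 with DESeq2 to 0.0443), and under 3 of 6 with 1 library left out. The count of members past the threshold, 1 in the report, was 2 without a filter (*Bak1* and *Bcl2l11*, the latter at -0.78 with adjusted p = 0.0352), 0 at an adjusted p under 0.01, and 0 to 2 with 1 library left out, where it was 0 without saline replicate 2, microbead replicate 1 or microbead replicate 3. The 3 other pathway genes became 6 without a filter, 6 with DESeq2, 1 with the replicate block, 0 at an adjusted p under 0.01, and 0 to 4 with 1 library left out. Over all genes the 2261 calls became 3720 without a filter, 3582 with DESeq2, 905 with the replicate block, 851 with the replicate block and the GC and length offset, 87 at an adjusted p under 0.01, and 46 (without microbead replicate 3) to 2621 (without saline replicate 1) with 1 library left out. Without a filter 40.6% of calls were higher, against 50.6%, and the median of all genes was -0.23 on the log2 scale. That median includes the genes that the filter removes, and the members shifted less. *Bak1* stood there at 1.07 against 1.11, and *Bcl2l11* at -0.78 against -0.73. The sign of *Hrk* turned with limma-voom (-0.40), the replicate block (-0.14) and thinning (-0.07), and its log2 fold change ran from -0.51 to 0.57 with 1 library left out. That of *Bcl2l1* ran from -0.19 to 0.05. *Foxo3* lost its call with the replicate block (adjusted p = 0.0548) and with the block and offset (0.0809), and *Vdac1* with the block (0.0564). The causes were not tested. The same replicate number did not pair the samples (correlations of -0.04, 0.14 and 0.01, and not every library correlated best with its own number), and the block changed no other call among the members. With the GC and length offset, *Bcl2* stood at -0.07 and *Bbc3* at -0.29 on the log2 scale, and neither was called. *Hrk* has no value where 10 counts were required in every library. The microbead libraries had fewer counts (medians of 37546884 in saline and 15647739 in microbead), and among the members *Hrk* and *Bbc3* had the fewest.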
